A study of Drosophila ananassae with 54 samples.

Results

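This account concerns the difference between the cold responses of FastBKK and SlowBKK flies in the body of adult male Drosophila ananassae, a tropical fruit fly. It rests on 12 of the series' 54 RNA-seq libraries, chosen by their labels as the cold and control body libraries of these lines, with 3 libraries per group. FastBKK is a pool of 4 isofemale lines from Bangkok with a cold-tolerant phenotype, and SlowBKK is a pool of 4 isofemale lines from Bangkok with a cold-sensitive phenotype. An isofemale line descends from 1 wild-caught female. Cold flies were held at 10 °C for 4 days and then given 90 min of recovery, and control flies were held at 22 °C for 4 days, in each case from the day after they left the pupa. Each library came from 10 individuals, and the labels name no transgene or drug. KATH, a pool of 3 isofemale lines from Kathmandu with a cold-tolerant phenotype, had 6 body libraries under the same treatments and served as a line outside the contrast. Each phenotype is represented in Bangkok by 1 pool of lines, so tolerance and the choice of lines cannot be told apart, and acclimation and recovery cannot be separated. Nothing in the labels says that the replicates came from separate cultures, so p-values measure the spread between these libraries.

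Insects lose ion and water balance in the cold: transport in the Malpighian tubules and hindgut slows, potassium accumulates in the blood, and neuromuscular function fails in chill coma. Cold acclimation is a period of mild cold that changes gene expression, membranes and ion transport, and a line that acclimates differently can start from another level at the rearing temperature, reach another level in the cold, or both. The quantity described here is an interaction, the log2 cold response of FastBKK (cold minus control) minus that of SlowBKK. A positive value is a more positive or less negative response in FastBKK. The deposited table gives an annotation symbol, a FlyBase identifier, a scaffold and a length for each gene, and no name or function. Genes are therefore identified by symbol and grouped by how they responded, and the gut, tubule, muscle or other source of a transcript within the body cannot be read from these labels. No marker of a cell type could be checked, and in whole-body RNA fewer cells of a type and less RNA per cell cannot be told apart.

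The 12 libraries held 30.7 to 38.8 M counts each, with a median of 33.5 M. Levels are in CPM, each gene's counts relative to its library total after scaling by the trimmed mean of M-values, which are not per length, so levels are compared between libraries and not between genes. Replicates of a group correlated at 0.986 to 0.992 over genes. Fold changes and standard errors (SE) come from edgeR's quasi-likelihood test on all 6 body groups, and a gene is called when its Benjamini-Hochberg adjusted p over all tested genes is under 0.05.

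The body cold response differed between the lines for 432 of 13435 tested genes, or 3.22% (edgeR). FastBKK had the higher response for 189 of them (1.41% of tested genes) and the lower response for 243 (1.81%). Upper-quartile scaling called 153 genes higher and 349 lower, a lower share of higher calls than the main scaling gave. The excess of lower calls was kept with limma-voom (183 higher, 215 lower) but was not stable. The DESeq2 test called 509 higher and 472 lower, and the 12 libraries fitted alone gave 349 and 317. Without FastBKK control replicate 3 the calls were 207 higher and 171 lower. The differences were mostly moderate: the median absolute interaction of the called genes was 0.71 on the log2 scale, against 0.19 over all tested genes. An interaction over 2-fold was called for 125 genes (0.93%), 36 higher and 89 lower in FastBKK, and one over 4-fold for 34 genes, 11 higher and 23 lower. They sat beside a broader response in each line, since cold changed 50.3% of tested genes in FastBKK (25.2% up, 25.2% down) and 47.4% in SlowBKK (23.4% up, 24% down). Single libraries moved the count: it was 112 without SlowBKK cold replicate 4, 145 without FastBKK control replicate 4, 158 without FastBKK cold replicate 2, 186 without SlowBKK control replicate 2 and also without control replicate 4, 238 without SlowBKK control replicate 3, 264 without SlowBKK cold replicate 1 and 285 without FastBKK cold replicate 1. It was 715 without KATH control replicate 1 and 897 without KATH control replicate 4, although neither side of the contrast holds a KATH library. The genes called higher in FastBKK numbered 123 without KATH cold replicate 3 and 121 without KATH control replicate 2. Every one of the 432 genes kept the sign of its interaction without each of these libraries. Those fits reused the other libraries that gave the calls, and KATH libraries enter only the estimate of spread. The kept signs were therefore largely built in.

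**Figure D1:**
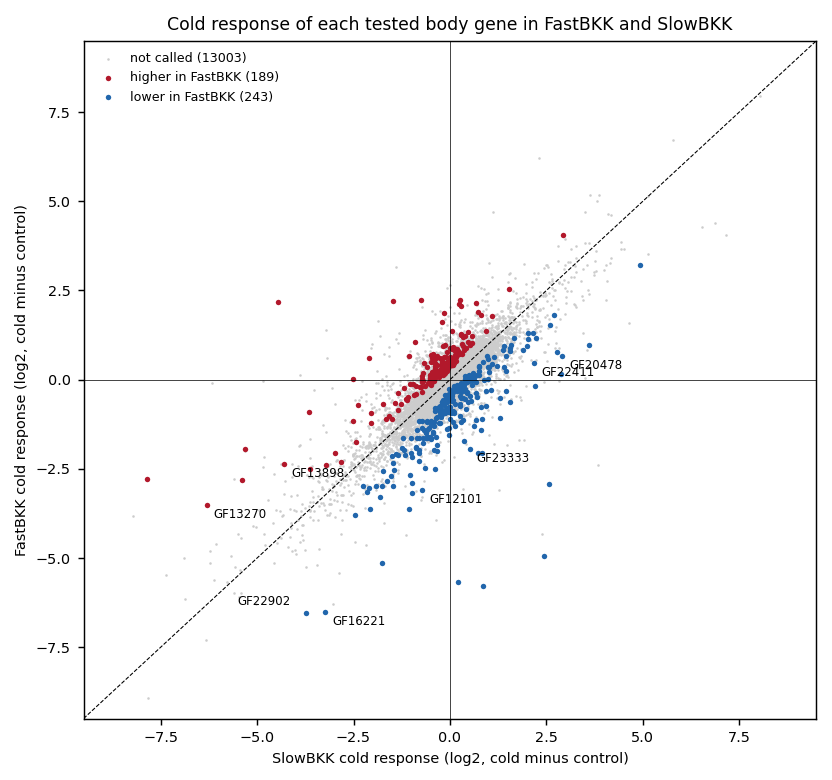
Cold response of each of 13435 tested body genes in FastBKK (vertical axis, log2 cold minus control) and SlowBKK (horizontal axis, same unit), with equal responses on the dashed line. The 189 called genes with the higher response in FastBKK lie above that line and the 243 with the lower response below it, and 8 of the named genes carry their symbols.

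Gene length moved with the interaction and is given here beside the counts. The called genes that were higher in FastBKK had a median length of 3396 bases, those that were lower had one of 1026 bases, and the median of all tested genes was 1571 bases. The tested genes were split by length into 5 classes of about equal number. In the longest class, 2857 to 58287 bases, 107 genes were called higher and 7 lower. In the shortest class, 162 to 842 bases, 15 were called higher and 87 lower. Among all genes of the longest class the median cold response was 0.20 in FastBKK, 0.01 in SlowBKK and 0.24 in KATH on the log2 scale, and in the shortest class it was -0.15 in FastBKK, -0.02 in SlowBKK and -0.18 in KATH. In each line the slope was positive in cold and negative in control libraries: the log2 CPM deviation per doubling of length ran from 0.072 to 0.091 in FastBKK cold and from -0.12 to -0.06 in FastBKK control libraries, against 0.017 to 0.046 in SlowBKK cold and -0.035 to -0.014 in SlowBKK control libraries. A fit that removed a length trend from each library called 252 genes, 97 higher and 155 lower, and 215 of them were among the 432. In that fit the median lengths of the higher and lower genes were 1663 and 1602 bases, and 431 of the 432 genes kept their sign. Whether the length trend lies in the flies' transcripts or in the RNA of the libraries was not tested.

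**Figure D2:**
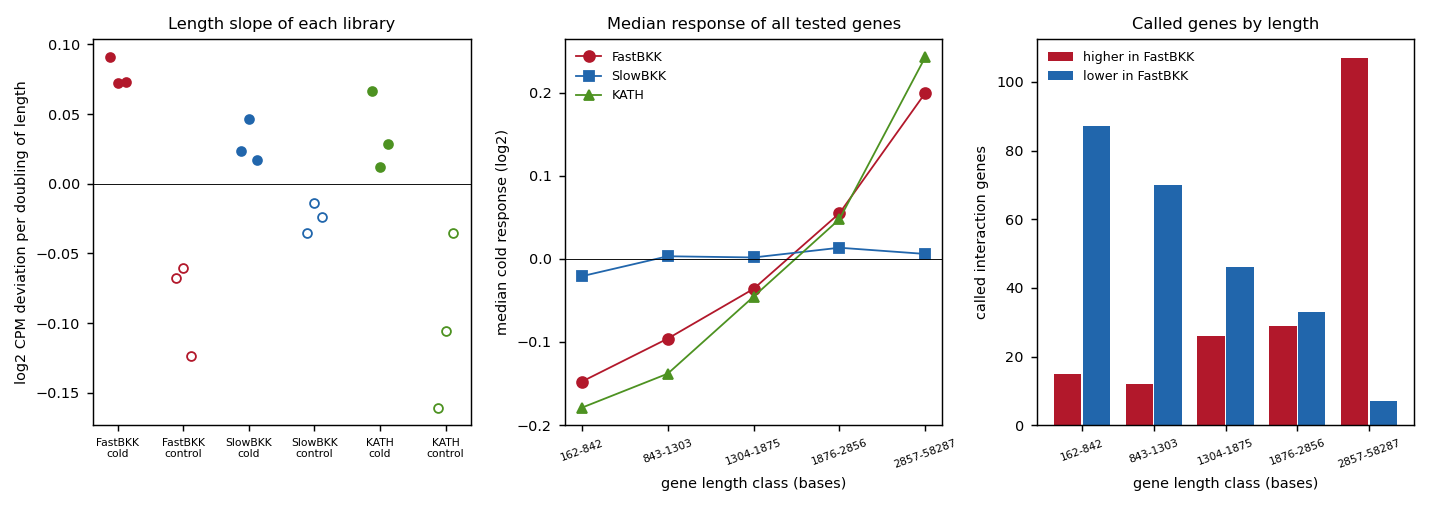
Left, slope of each body library's log2 CPM deviation on log2 gene length (3 points per group, filled for cold and open for control); middle, median log2 cold response of all tested genes in each of 5 classes of gene length for 3 lines; right, called interaction genes per length class. The medians climb with length in FastBKK and KATH and stay between -0.02 and 0.01 in SlowBKK, and 107 of the 114 called genes of the longest class were higher in FastBKK.

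The 432 genes fell into 3 kinds by the response of each line, read from the same libraries as the interaction and so given as a description. A response was called in 1 line only for 240 genes, 55.6% of the called genes, where 27.9% of tested genes were in this class. Of the 240, 151 responded in FastBKK (74 up, 77 down) and 89 in SlowBKK (42 up, 47 down). Both lines responded with 1 sign and different size for 157 genes (36.3%), close to the 34.7% of tested genes called with 1 sign in both. The larger response was FastBKK's for 99 (21 up, 78 down) and SlowBKK's for 58 (31 up, 27 down). The lines responded in opposite directions for 35 genes, 20 up in FastBKK and 15 down in FastBKK, of only 38 such genes (0.283%) among all tested. All of the 432 had a called response in at least 1 line, which 37.2% of tested genes lacked. A decline in both lines that was deeper in FastBKK was the class with most genes, 78 beside 77 with a decline in FastBKK only. These were 18.1% and 17.8% of the called genes, where 10.0% and 7.16% of tested genes were in these classes. In the 78 the median response was -1.64 in FastBKK and -0.79 in SlowBKK, and the median length 1012 bases. With the length trend removed, 23 called genes had opposite responses, 116 a response in 1 line only and 113 in both with 1 sign. Leaving out 1 library gave 10 to 64 opposite genes, 58 to 529 in 1 line only and 44 to 307 in both. The lines' levels at each temperature were also compared. Of the 432 genes, 228 (52.8%) differed between FastBKK and SlowBKK in the cold only and 133 (30.8%) in the control only. Among tested genes 14.2% differed in the cold only and 7.96% in the control only. Another 35 called genes (8.10%) differed in both with opposite sign, 19 (4.40%) in both with 1 sign and 17 (3.94%) in neither. Those shares of tested genes were 0.261%, 5.98% and 71.6%. Counting genes that differed in both, 20.4% of tested genes differed in the cold and 14.2% in the control (7.26% higher and 6.93% lower in FastBKK). The cold and control libraries did not overlap for 363 of the 432 genes in FastBKK (84.0%, where 57.3% of tested genes had no overlap) and for 315 in SlowBKK (72.9%, where 57.4% had none).

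Among the named genes, GF13270 had the smallest interaction p. It is a gene of 1958 bases on scaffold_13266 whose transcript fell in the cold in every line. Its cold libraries had 8.33, 7.13 and 4.72 CPM in FastBKK, where the controls had 70.3, 83.3 and 78.4. In SlowBKK the cold libraries had 1.54, 0.865 and 0.899 CPM and the controls 88.5, 90.8 and 84.3. The cold libraries of the lines did not overlap, and FastBKK had more of the transcript left in the cold. The interaction was 2.78 ± 0.25 (edgeR adjusted p = 7.41e-05), made of responses of -3.53 ± 0.16 in FastBKK and -6.31 ± 0.20 in SlowBKK. In KATH the response was -3.03 ± 0.16. With the length trend removed the interaction was 2.77.

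GF13898 (769 bases) and GF27199 (1277 bases) showed the same pattern of a decline in both lines that was shallower in FastBKK. GF13898 had 9.40, 8.59 and 9.25 CPM in cold and 50.8, 41.2 and 49.5 CPM in control FastBKK bodies. In SlowBKK it had 3.13, 0.865 and 2.02 CPM in cold and 37.1, 40.9 and 41.1 CPM in control bodies. The cold libraries of FastBKK all lay above those of SlowBKK, and the interaction was 1.93 ± 0.33 (edgeR adjusted p = 0.00713). GF27199 averaged 17.9 ± 4.12 CPM in cold and 40.2 ± 6.58 CPM in control FastBKK bodies (SD, n = 3 each). In SlowBKK it averaged 8.80 ± 2.53 CPM in cold and 49.97 ± 5.34 CPM in control bodies (SD, n = 3 each). Its control libraries overlapped between the lines and its cold libraries did not. The interaction was 1.34 ± 0.27 (edgeR adjusted p = 0.0192), and without FastBKK cold replicate 2 it was 1.18 and no longer called.

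In the other direction, GF12101, GF22902 and GF16221 fell in both lines and fell further in FastBKK. GF12101, a gene of 643 bases on scaffold_13266, had 3.31, 3.32 and 5.14 CPM in cold and 37.6, 32.7 and 30.4 CPM in control FastBKK bodies. In SlowBKK it had 11.2, 9.26 and 14.9 CPM in cold and 20.7, 19.5 and 17.9 CPM in control bodies. No pair of these 4 groups overlapped: FastBKK was the higher line in the control and the lower in the cold. Its interaction was -2.38 ± 0.27 (edgeR adjusted p = 0.000722). GF22902 (2142 bases) had 0.643, 0.408 and 0.643 CPM in cold and 58.7, 50.7 and 47.9 CPM in control FastBKK bodies. SlowBKK bodies had 1.36, 3.26 and 3.54 CPM of it in the cold and 36.0, 45.0 and 27.6 CPM in the control. It was nearly gone from cold FastBKK libraries, and its interaction was -2.79 ± 0.50 (edgeR adjusted p = 0.00862). With limma-voom it was -2.70 and not called.

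GF16221 (825 bases) was called between the lines in the control and not in the cold. The cold libraries had 0.827, 0.349 and 0.531 CPM in FastBKK and 0.927, 0.981 and 0.527 CPM in SlowBKK, and these ranges overlapped. The control libraries had 24.3, 74.4 and 58.0 CPM in FastBKK and 5.21, 12.2 and 5.85 CPM in SlowBKK, with all FastBKK values above all SlowBKK values. The interaction was -3.28 ± 0.76 (edgeR adjusted p = 0.0323), beside KATH values of 1.101, 1.91 and 0.840 CPM in the cold and 9.87, 13.1 and 9.16 CPM in the control. Its call was lost with limma-voom, at -3.29, and without any 1 of FastBKK cold replicates 2 and 4, FastBKK control replicate 4, SlowBKK cold replicates 1, 3 and 4, and SlowBKK control replicates 2 and 4, at interactions of -3.51 to -3.04.

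The 35 genes with opposite responses had small median responses in each line. The 20 that were up in FastBKK had medians of 0.34 in FastBKK and -0.35 in SlowBKK. The 15 that were down in FastBKK had -0.47 in FastBKK and 0.45 in SlowBKK. Single genes changed by more, and interactions reached 1.98 in the first group and -2.91 in the second. The latter value is that of GF23334, described below, with responses of -2.07 in FastBKK and 0.84 in SlowBKK. GF22912 (1855 bases) had 183, 182 and 178 CPM in cold and 145, 145 and 121 CPM in control FastBKK bodies. In SlowBKK the same gene had 140.3, 143 and 145 CPM in cold and 172, 161 and 166 CPM in control bodies. Cold and control libraries were separate in each line, in opposite order, and the interaction was 0.62 ± 0.10 (edgeR adjusted p = 0.00615). KATH rose like FastBKK, by 0.56 ± 0.07. GF14874 (3056 bases) had 91.3, 78.4 and 89.9 CPM in cold and 78.6, 69.8 and 76.2 CPM in control FastBKK bodies. Its SlowBKK values were 77.0, 75.8 and 72.2 CPM in cold and 94.3, 97.8 and 96.1 CPM in control bodies. Its FastBKK groups overlapped by a narrow margin and its SlowBKK groups did not; the interaction was 0.57 ± 0.10 (edgeR adjusted p = 0.00785).

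Of the opposite genes that were down in FastBKK, GF12671 (1367 bases) had 28.8, 27.2 and 26.3 CPM in cold and 37.8, 31.7 and 36.8 CPM in control FastBKK bodies. Its SlowBKK values were 33.1, 30.7 and 31.9 CPM in cold and 23.1, 23.2 and 24.1 CPM in control bodies. The groups of each line were separate, with a FastBKK mean above that of SlowBKK in the control and below it in the cold. The interaction was -0.81 ± 0.11 (edgeR adjusted p = 0.00157), and KATH did not pass the test at 0.09 ± 0.08. GF16090 (2002 bases) averaged 12.01 ± 1.23 CPM in cold and 16.7 ± 1.75 CPM in control FastBKK bodies, and 13.5 ± 0.964 CPM in cold and 11.3 ± 1.103 CPM in control SlowBKK bodies (SD, n = 3 each). Its interaction was -0.73 ± 0.14 (edgeR adjusted p = 0.0153), and here KATH rose with SlowBKK, by 0.30 ± 0.10.

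Genes called up in FastBKK and not in SlowBKK were long as a group, with a median of 4373 bases over the 74. GF21038 (7977 bases) had 19.9, 20.4 and 23.4 CPM in cold and 11.2, 11.2 and 10.4 CPM in control FastBKK bodies. SlowBKK had 16.1, 16.0 and 13.2 CPM in the cold and 17.2, 16.1 and 16.3 CPM in the control. The FastBKK groups were far apart and the SlowBKK groups overlapped. The interaction was 1.09 ± 0.14 (edgeR adjusted p = 0.00157), and 0.76 with the length trend removed. GF16309 (2172 bases) averaged 245 ± 10.6 CPM in cold and 135 ± 7.84 CPM in control FastBKK bodies, and 161 ± 5.73 CPM in cold and 156 ± 7.93 CPM in control SlowBKK bodies (SD, n = 3 each). Its interaction was 0.81 ± 0.14 (edgeR adjusted p = 0.00862), little moved by the length term at 0.77.

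GF13333, the longest of the named genes at 14467 bases, followed the same course. It had 39.6, 43.0 and 39.8 CPM in cold and 18.4, 16.3 and 12.7 CPM in control FastBKK bodies. In SlowBKK it had 30.1, 26.1 and 30.2 CPM in cold and 32.3, 27.9 and 23.3 CPM in control bodies, which overlapped. The interaction was 1.32 ± 0.28 (edgeR adjusted p = 0.0238), and it was 0.87 with the length trend removed. Its call was lost without any 1 of FastBKK cold replicate 2, FastBKK control replicate 4, SlowBKK cold replicate 4 and SlowBKK control replicate 2, at interactions of 1.18 to 1.35.

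The 77 genes called down in FastBKK and not in SlowBKK had a median response of -0.90 in FastBKK and 0.01 in SlowBKK. They were short, with a median of 912 bases. The 2 with the smallest interaction p were set apart by the FastBKK control. GF15578 (1533 bases) had 9.43, 8.42 and 8.72 CPM in cold and 18.1, 24.4 and 17.8 CPM in control FastBKK bodies. It had 9.44, 8.05 and 8.84 CPM in cold and 8.22, 8.10 and 8.73 CPM in control SlowBKK bodies, and KATH had 10.6, 8.80 and 10.1 CPM in the cold and 8.72, 7.71 and 8.54 CPM in the control. All 3 FastBKK control libraries stood above the other 15 body libraries, and the cold FastBKK libraries overlapped with the others. The interaction was -1.26 ± 0.17 (edgeR adjusted p = 0.00157). GF23257 (989 bases) repeated this with 13.0, 11.7 and 11.9 CPM in cold and 22.5, 24.4 and 22.6 CPM in control FastBKK bodies. Its SlowBKK values were 14.3, 11.97 and 14.1 CPM in the cold and 13.1, 14.8 and 11.8 CPM in the control, and its interaction was -0.95 ± 0.13 (edgeR adjusted p = 0.00157). Between the lines, GF15578 differed by 1.27 ± 0.12 in the control and by 0.01 ± 0.12 in the cold, and GF23257 by 0.81 ± 0.09 in the control and -0.14 ± 0.09 in the cold.

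GF23333 (832 bases, scaffold_12911) was called down in FastBKK and not in SlowBKK as well, with 17.0, 22.5 and 23.99 CPM in cold and 77.4, 77.2 and 90.1 CPM in control bodies. SlowBKK had 128, 104 and 184 CPM in the cold and 118, 99.4 and 75.8 CPM in the control, which overlapped. The interaction was -2.45 ± 0.44 (edgeR adjusted p = 0.00862). Its neighbours by symbol number, GF23332 and GF23334, had interactions of -2.06 ± 0.46 and -2.91 ± 0.46 and were also called. GF23334 had 1.41, 0.932 and 1.54 CPM in cold and 5.26, 5.86 and 5.18 CPM in control FastBKK bodies, and 16.2, 12.8 and 25.99 CPM in cold and 14.1, 8.04 and 8.64 CPM in control SlowBKK bodies. A second run of 3 called symbols was GF25227, GF25228 and GF25229 on scaffold_13337, of 559 to 585 bases, with interactions of -1.55, -1.004 and -1.16. With the length trend removed none of these 3 was called, at -1.41, -0.86 and -1.02. GF25227 had 10.0, 4.83 and 9.76 CPM in cold and 137, 80.3 and 85.6 CPM in control FastBKK bodies, and 21.1, 24.7 and 27.0 CPM in cold and 83.7, 153 and 68.6 CPM in control SlowBKK bodies. In KATH this gene was low at both temperatures, with 11.6, 12.2 and 14.7 CPM in the cold and 12.8, 13.9 and 10.3 CPM in the control. The symbol next to GF12101, GF12102 (660 bases), had an interaction of -1.81 ± 0.26. These runs were picked out after their values were seen. Of all called genes 34 (7.87%) had a called gene of the next symbol number on their scaffold, as did 4.38% of tested genes, and 12 of the 18 such pairs moved in 1 direction. All 12 were lower in FastBKK, as were 243 of the 432 called genes. They include the pairs of the runs described here, and pairs within a run share a gene. The share of pairs with 1 direction among all tested genes is not given, so the 12 have no background. If members of a run are near-identical copies their reads could have been split or shared in counting, so their values are uncertain as separate measurements.

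The genes called up in SlowBKK and not in FastBKK numbered 42, with median responses of -0.02 in FastBKK and 0.59 in SlowBKK. GF20478 (2121 bases) had 8.76, 5.65 and 9.95 CPM in cold and 7.22, 4.51 and 3.88 CPM in control FastBKK bodies. In SlowBKK it had 38.5, 48.3 and 41.5 CPM in cold and 8.53, 4.56 and 4.18 CPM in control bodies. The 3 cold SlowBKK libraries stood above all other body libraries, KATH included. The interaction was -2.25 ± 0.41 (edgeR adjusted p = 0.0107). GF22411 (598 bases) had 158, 150.1 and 146 CPM in cold and 104, 135 and 90.9 CPM in control FastBKK bodies, and 307, 229 and 330.3 CPM in cold and 74.9, 51.2 and 65.6 CPM in control SlowBKK bodies. Its FastBKK groups did not overlap either, but the FastBKK response of 0.46 ± 0.21 did not pass the test (edgeR adjusted p = 0.0839). The interaction was -1.71 ± 0.31 (edgeR adjusted p = 0.00862).

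Of the 47 genes called down in SlowBKK and not in FastBKK, with a median length of 3496 bases, GF11588 (1546 bases) had 551, 626 and 582 CPM in cold and 629.9, 596 and 568 CPM in control FastBKK bodies. Its SlowBKK values were 457, 371 and 373 CPM in cold and 579, 664 and 715 CPM in control bodies. SlowBKK fell, FastBKK did not pass the test at -0.03 ± 0.09, and KATH fell with a response of -0.91 ± 0.09. The interaction was 0.68 ± 0.12 (edgeR adjusted p = 0.00995). GF10557 (1870 bases) averaged 45.2 ± 2.03 CPM in cold and 40.6 ± 0.429 CPM in control FastBKK bodies, and 36.4 ± 1.91 CPM in cold and 48.4 ± 3.50 CPM in control SlowBKK bodies (SD, n = 3 each). Its interaction was 0.56 ± 0.10 (edgeR adjusted p = 0.007), and KATH rose by 0.56 ± 0.07.

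Shared responses of unequal size included GF18858 (1708 bases), with 34.8, 37.2 and 37.3 CPM in cold and 103, 101 and 102 CPM in control FastBKK bodies. SlowBKK had 39.7, 45.0 and 49.0 CPM of it in the cold and 73.2, 65.2 and 65.7 CPM in the control. Its replicates were tight, the fall was deeper in FastBKK, and the interaction was -0.87 ± 0.10 (edgeR adjusted p = 0.000801). GF12160 (725 bases) rose in both lines and rose more in SlowBKK. It had 39.96, 41.6 and 43.9 CPM in cold and 29.1, 34.4 and 32.2 CPM in control FastBKK bodies. It had 42.6, 53.6 and 48.2 CPM in cold and 20.9, 21.6 and 19.4 CPM in control SlowBKK bodies, so that SlowBKK was the lower line in the control only. The interaction was -0.83 ± 0.12 (edgeR adjusted p = 0.00182).

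**Figure D3:**
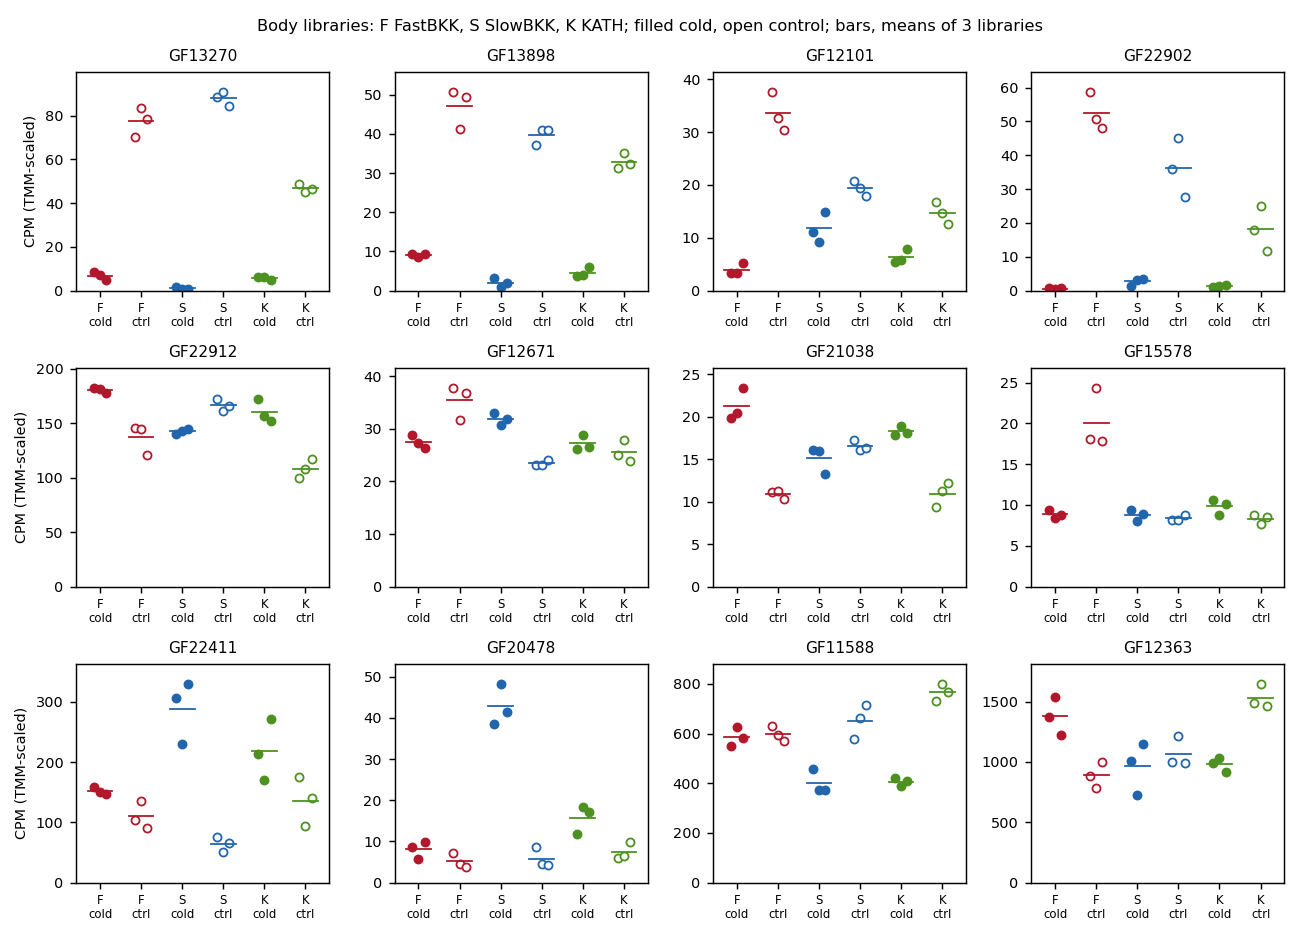
Normalised expression (CPM, linear axes starting at 0) of 12 named genes in the 18 body libraries, with 1 point per library, filled for cold and open for control, and a bar at each group mean. GF15578 is high only in the FastBKK control, GF20478 only in cold SlowBKK, and the cold groups of GF13270 and GF13898 lie higher in FastBKK than in SlowBKK.

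Some called genes changed by many counts with modest ratios. GF12587 (1784 bases) averaged 1921 ± 149.9 CPM in cold and 1402 ± 114 CPM in control FastBKK bodies (SD, n = 3 each). In SlowBKK it averaged 1754 ± 199 CPM in cold and 1822 ± 143 CPM in control bodies (SD, n = 3 each), and these groups overlapped. GF12363 (1897 bases) showed the same course, with 1377 ± 156 CPM in cold and 887 ± 107 CPM in control FastBKK bodies and 963 ± 214 CPM in cold and 1069 ± 127 CPM in control SlowBKK bodies (SD, n = 3 each). Both rose in FastBKK and fell in KATH, where the responses were -0.57 ± 0.09 and -0.64 ± 0.14. Their interactions were 0.51 ± 0.13 (edgeR adjusted p = 0.0439) and 0.79 ± 0.19 (edgeR adjusted p = 0.0396). With the length trend removed the interactions were 0.52 for GF12587 and 0.78 for GF12363, and neither was called. The GF12587 call was lost without any 1 of FastBKK cold replicates 1 and 2, FastBKK control replicates 3 and 4, SlowBKK cold replicates 3 and 4, SlowBKK control replicates 2, 3 and 4, KATH cold replicates 3 and 4 and KATH control replicate 2, at interactions of 0.43 to 0.56. The GF12363 call was lost without any 1 of FastBKK cold replicates 1 and 2, FastBKK control replicates 1, 3 and 4, SlowBKK cold replicate 1, SlowBKK control replicates 2, 3 and 4, KATH cold replicate 3 and KATH control replicate 2, at 0.67 to 0.88.

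GF14888 and GF24038 were at high CPM in control bodies and fell in both lines. GF14888 (1059 bases) had 543, 459.7 and 441 CPM in cold and 3607, 4216 and 3995 CPM in control FastBKK bodies. SlowBKK had 594, 824 and 732 CPM of it in the cold and 2904, 4029 and 2214 CPM in the control. Its SlowBKK control libraries were spread and overlapped with those of FastBKK, while its cold libraries were lower in FastBKK without overlap. GF24038 (431 bases) averaged 729 ± 91.0 CPM in cold and 3698 ± 226 CPM in control FastBKK bodies, and 1022 ± 106 CPM in cold and 2860 ± 523 CPM in control SlowBKK bodies (SD, n = 3 each). The interactions were -0.94 ± 0.23 (edgeR adjusted p = 0.0379) for GF14888 and -0.86 ± 0.20 (edgeR adjusted p = 0.0318) for GF24038. With the length trend removed the interaction of GF14888 was -0.84 and not called. The GF14888 call was lost without any 1 of FastBKK cold replicates 2 and 4, FastBKK control replicates 3 and 4, SlowBKK cold replicates 3 and 4, SlowBKK control replicates 2 and 4 and KATH cold replicate 3, at interactions of -0.95 to -0.78. The GF24038 call was lost without any 1 of FastBKK cold replicates 2 and 4, FastBKK control replicate 4, SlowBKK cold replicates 1 and 4 and SlowBKK control replicate 4, at -0.88 to -0.73.

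KATH shares the tolerant phenotype of FastBKK and its libraries did not enter the contrast, so its responses were set beside those of the called genes. Cold changed 58.7% of tested genes in KATH, 29.7% up and 28.9% down. Of the 74 genes called up in FastBKK and not in SlowBKK, KATH was called up for 56 and down for 4. The 77 genes called down in FastBKK and not in SlowBKK included 30 with KATH called down, 3 up and 44 not called. Where SlowBKK alone was called up, KATH was up for 25 of 42, and where SlowBKK alone was called down it was down for 17 and up for 10 of 47. For the 20 opposite genes that were up in FastBKK, KATH was called up for 9 and down for 4, and for the 15 that were down in FastBKK it was called up for 3 and down for 0. Measured by distance, the KATH response lay nearer to FastBKK than to SlowBKK for 134 of the 189 genes with the higher FastBKK response (70.9%), where 59.6% of all tested genes with a positive interaction did so. It lay nearer to FastBKK for 99 of the 243 genes with the lower FastBKK response (40.7%), where 51.4% of all tested genes with a negative interaction did so. Over all 432 genes the share was 53.9%, against 55.4% of all tested genes. Of the 134 genes, 84 were in the longest class. In the fit without the length trend KATH lay nearer to FastBKK for 66 of 97 higher and 62 of 155 lower genes. The shares of all tested genes in that fit are not given, so these counts have no background. Leaving out 1 library gave 62.2% to 80.5% for the higher genes. For the lower genes it gave 26.7% (without FastBKK cold replicate 1) to 55.7% (without KATH control replicate 4), so that share was not stable relative to the 51.4% of all tested genes. No test of these shares was made.

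**Figure D4:**
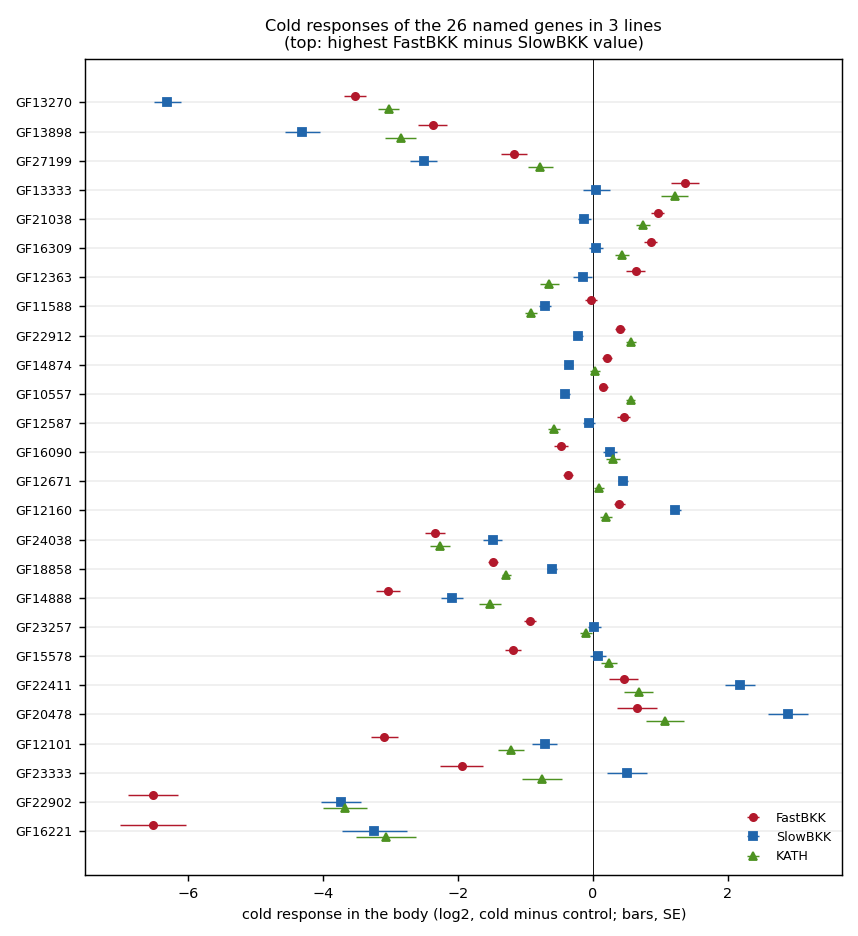
Body cold response (horizontal axis, log2 cold minus control, with SE) of the 26 named genes in FastBKK, SlowBKK and KATH, ordered by the FastBKK minus SlowBKK value. KATH lies near FastBKK for GF13270, GF13333 and GF18858, near SlowBKK for GF16221, GF22902 and GF15578, and outside both for GF12363 and GF12587.

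The same interaction was fitted in the hindgut and in the Malpighian tubules, the organs of ion and water balance, with 18 libraries each. The contrast used 12 of them, and the KATH libraries entered only the estimate of spread. The interaction was called for 65 of 11323 genes (0.574%) in the hindgut and 68 of 10132 (0.671%) in the tubules. Of the 397 body-called genes tested in the hindgut, 313 (78.8%) had the body's sign there, against 62.9% of the remaining genes. The share exceeded that of the remaining genes in each length class, ranging from 74.6% to 86.5% over the classes against 58.5% to 67.4%. Length moved with the hindgut interaction too, whose median was 0.12 in the longest and -0.13 in the shortest class. FastBKK control hindgut replicate 3 carries body transcripts by an earlier reading of these data, and the hindgut values above include it. The body and hindgut libraries are therefore not fully separate sources. Without this library the shares were 68.6% for body-called and 57.5% for the remaining genes. In the tubules 209 of 358 body-called genes (58.4%) had the body's sign, against 56.5% of the remaining genes. No test of these shares was made.

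Calls in both body and organ were few. In the hindgut 9 genes were called in both, 2.27% of the body-called genes tested there and 13.8% of the hindgut calls, and all 9 had 1 sign. The number shared moved with single hindgut libraries, 1 of which, FastBKK control replicate 3, carries body transcripts. It was 1 without FastBKK cold replicate 4, SlowBKK cold replicate 4 or SlowBKK control replicate 1 or 2, and 4 without FastBKK control replicate 3 or 4. It was 5 without FastBKK cold replicate 3, 6 without FastBKK control replicate 1, and 5 without SlowBKK cold replicate 1, of which 4 had 1 sign. Without FastBKK cold replicate 1 it was 9, of which 8 had 1 sign. Those among the named genes were GF12671, GF15578, GF23257 and GF12160. The hindgut interaction was -2.54 ± 0.48 for GF15578 (edgeR adjusted p = 0.0349) and -2.19 ± 0.38 for GF23257 (edgeR adjusted p = 0.0268). In the hindgut GF15578 averaged 11.3 CPM in cold and 40.6 CPM in control FastBKK, and 9.48 CPM in cold and 5.86 CPM in control SlowBKK, so the high FastBKK control level of the body was seen there as well. GF23257 averaged 42.5 CPM in cold and 86.4 CPM in control FastBKK hindguts, and 26.7 CPM in cold and 11.9 CPM in control SlowBKK hindguts. For GF12671 the hindgut interaction was -1.13 ± 0.19 (edgeR adjusted p = 0.0248) and for GF12160 it was -0.76 ± 0.16 (edgeR adjusted p = 0.0468). GF13270 had a hindgut interaction of 2.87 ± 1.32 that did not pass the test, and its tubule value was -2.83 ± 3.52. Other named genes that did not pass in an organ had either sign there. In the hindgut, GF16309 (1.13 ± 0.42) and GF11588 (0.84 ± 0.31) had the body's sign. GF12587 (-4.79 ± 1.68) and GF16090 (0.65 ± 0.26) had the opposite sign there, as did GF27199 in the tubules (-6.37 ± 2.66). The hindgut interactions of single genes include FastBKK control hindgut replicate 3, which carries body transcripts, and are not given without it. GF12587 averaged 1402 CPM in control FastBKK bodies, and the effect of that library on its hindgut value was not tested.

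Tubule calls shared with the body also numbered 9, all with 1 sign, and none was among the named genes. The shared number was 0 without FastBKK cold replicate 3 or 4, SlowBKK cold replicate 2 or 3 or SlowBKK control replicate 2. It was 2 without SlowBKK cold replicate 4 or SlowBKK control replicate 1, and 5 without FastBKK control replicate 2 or 4 or SlowBKK control replicate 5. Without FastBKK control replicate 3 it was 6, of which 5 had 1 sign, and without FastBKK cold replicate 1 it was 29, of which 25 had 1 sign. The 2 tubule genes described next were picked out after their values were seen. GF14042, at -1.67 ± 0.33 in the tubules and -0.90 in the body, averaged 34.5 CPM in cold and 14.0 CPM in control FastBKK tubules, and 61.9 CPM in cold and 7.91 CPM in control SlowBKK tubules. Its mean was higher in the cold in both lines, by more in SlowBKK (edgeR adjusted p = 0.034 for the tubule interaction). With the length trend removed its body interaction was -0.87 and not called, nor were those of GF17809, GF22215 and GF11950 among the 9 shared genes. GF24014 had the same pattern, at -1.39 ± 0.24 in the tubules and -0.63 in the body, with 134 CPM in cold and 53.6 CPM in control FastBKK tubules and 491 CPM in cold and 75.1 CPM in control SlowBKK tubules. The organ counts were unstable to single libraries, and KATH organ libraries were not left out. The hindgut count was 6 without FastBKK cold replicate 4 or SlowBKK control replicate 2, 7 without SlowBKK control replicate 1, 11 and 21 without SlowBKK cold replicates 4 and 1, 18, 27 and 32 without FastBKK control replicates 4, 3 and 1, and 23 without FastBKK cold replicate 3. The tubule count was 364 without FastBKK cold replicate 1 and 4 without FastBKK cold replicate 3 or 4, 5 without SlowBKK cold replicate 2 or SlowBKK control replicate 2, 6 and 12 without SlowBKK cold replicates 3 and 4, 15 and 37 without FastBKK control replicates 4 and 2, and 18 and 26 without SlowBKK control replicates 1 and 5.

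**Figure D5:**
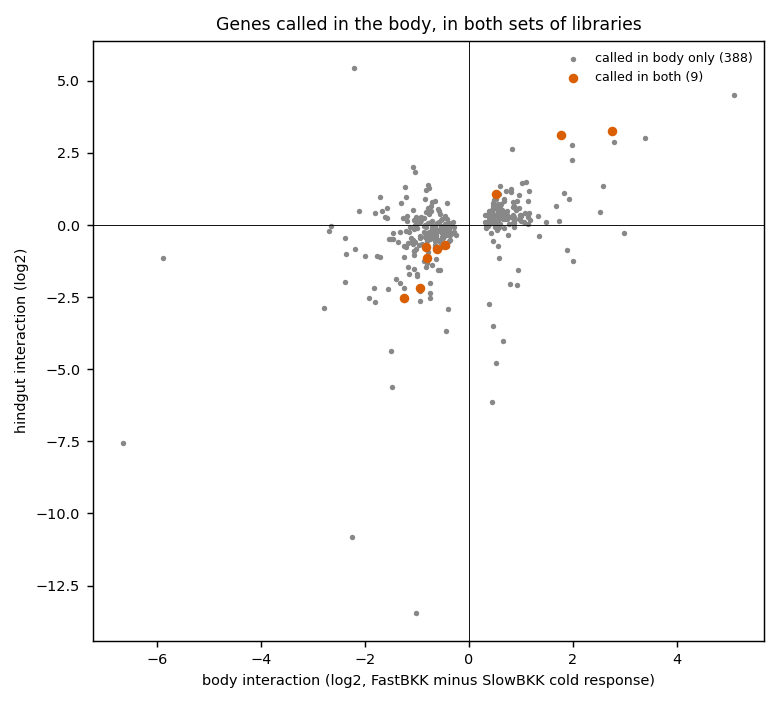
Interaction in the hindgut (vertical axis, log2) against that in the body (horizontal axis, log2) for the 397 genes called in the body and tested in both, with the 9 genes called in both drawn larger. All 9 lie in the quadrants of equal sign, as do 313 of the 397. The fit includes FastBKK control hindgut replicate 3, which carries body transcripts.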

How the data were processed

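Per the labels' protocols, body RNA came from a MasterPure kit and poly-A RNA was enriched for the libraries; FastQC 0.11.9 is the tool named in the submitters' processing notes, and the aligner, counter, strand setting and genome build are not given in the sources used here. The authors deposited raw counts per gene and library, whole numbers for 14365 genes, with gene lengths, per the file headers. From these counts, genes were filtered with filterByExpr (13435 kept), scaled by the trimmed mean of M-values (TMM) and fitted with edgeR 4.0.16 in R 4.3.3 (glmQLFit and glmQLFTest, Benjamini-Hochberg adjusted p under 0.05) over the 18 body libraries in 6 groups; hindgut and tubule libraries were fitted separately, because each organ was a separate set of libraries. SE is the absolute log2 fold change divided by the square root of F. The 12 libraries held 30.7 to 38.8 M counts, and none was a duplicate of another. The genes and groups described were chosen with earlier results of these data known.

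Named genes had to be called with a mean of at least 10 CPM over the 12 libraries and with separate cold and control libraries in at least 1 line, which 348 genes met; 26 were named as the 4 highest and 4 lowest interactions, the 2 smallest p in each response class and the 2 extremes of CPM change in each direction. The run and organ genes were added after their values were seen. No symbol matched the gene table at hand (0 matches), so no function, coordinate or sequence is given and lists by gene function were not used. Alternatives were DESeq2 1.42.0 size factors and test, upper-quartile scaling, limma 3.58.1 voom, other filters and library sets, a replicate block and a gene length offset. Each body library, and each FastBKK and SlowBKK organ library, was also left out. Leaving out KATH body libraries, and most organ libraries, was added after the data were seen. The steps were tested on simulated data.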

Additional observations from a re-analysis of the deposited data

Results flagged for a closer look

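Each result here is a cold response that differed between FastBKK and SlowBKK by a test of the difference itself, the interaction in edgeR, with 3 libraries per group. It passed for 432 genes in the body. Values are log2, the FastBKK response minus the SlowBKK response.

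Among the named genes FastBKK had the higher response for 12. Shallower declines than in SlowBKK gave 2.78 for GF13270, 1.93 for GF13898 and 1.34 for GF27199. A rise called in FastBKK and not in SlowBKK gave 1.32 for GF13333, 1.09 for GF21038, 0.81 for GF16309, 0.79 for GF12363 and 0.51 for GF12587. A decline called in SlowBKK and not in FastBKK gave 0.68 for GF11588 and 0.56 for GF10557. Opposite responses, up in FastBKK, gave 0.62 for GF22912 and 0.57 for GF14874.

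The lower response was FastBKK's for 14 named genes. Deeper declines than in SlowBKK gave -3.28 for GF16221, -2.79 for GF22902, -2.38 for GF12101, -0.94 for GF14888, -0.87 for GF18858 and -0.86 for GF24038. A decline called in FastBKK and not in SlowBKK gave -2.45 for GF23333, -1.26 for GF15578 and -0.95 for GF23257. A rise called in SlowBKK and not in FastBKK gave -2.25 for GF20478 and -1.71 for GF22411, and a larger rise in SlowBKK gave -0.83 for GF12160. Opposite responses, down in FastBKK, gave -0.81 for GF12671 and -0.73 for GF16090. Each of the 26 kept its sign in the alternatives run, which reuse the data that named them.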

How the results depend on the processing

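None of the 26 named interactions reversed in 29 alternatives each, and 645 of 754 combinations of gene and alternative kept the call. The 26 were named from these same data. Requiring a larger log2 value or leaving out a KATH library could hardly change a sign, so the kept signs were largely built in. The 432 interaction calls (189 higher, 243 lower in FastBKK) became 981 (509, 472) with DESeq2, 666 (349 higher) from the 12 FastBKK and SlowBKK libraries alone, 252 (97, 155) with the gene length offset and 125 (36, 89) with an absolute log2 over 1 required. One edgeR fit of all 54 libraries, which shares 1 estimate of spread across organs, called 0, with 0 higher and 0 lower, and had 945 genes at an unadjusted p under 0.05. With the replicate block 91 were called (32, 59), and 16 of the 26 named genes; the named genes not called with the block were GF27199, GF13333, GF23333, GF16090, GF20478, GF11588, GF12363, GF12587, GF24038 and GF14888, each with the sign it had without the block. Replicate numbers did not pair libraries: same-number deviations correlated at -0.234 to 0.127 over 33 pairs, and 3 of 18 libraries correlated best with their own number. Requiring an absolute log2 over 1 left 1688 FastBKK, 1574 SlowBKK and 1616 KATH cold responses, and 502 line differences in the cold and 394 in the control; all 54 libraries gave 3951, 3527, 3655, 476 and 341. Leaving out 1 library gave 112 to 897 interaction calls (38 to 441 higher, 74 to 456 lower), 1630 to 2946 line differences in the cold (1630 without SlowBKK cold replicate 4), 1109 to 2146 in the control (1202 without FastBKK control replicate 4, 1109 and 1226 without SlowBKK control replicates 2 and 3), and 6 to 96 calls in the hindgut and 4 to 364 in the tubules. The causes were not tested. Depth limits genes of few counts: 3 called genes had at most 3 counts in every FastBKK cold library, 1 in FastBKK control, 2 in SlowBKK cold and 2 in SlowBKK control libraries. Among all 13435 tested genes the numbers in the same order were 58, 57, 49 and 57.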

Other observations

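The 10 interactions over 8-fold, 4 higher and 6 lower in FastBKK, were picked out after their values were seen and, apart from GF16221, came from genes of low abundance, below the level required for naming. GF10274 (360 bases) had 2, 0 and 5 counts in cold FastBKK bodies and 130, 123 and 112 counts in control FastBKK bodies. In SlowBKK it had 2, 9 and 1 counts in the cold and 2, 3 and 5 counts in the control, and KATH had 6, 3 and 2 counts in the cold and 15, 6 and 8 in the control. Its transcript was thus above 15 counts only in FastBKK controls. GF10989 (412 bases) was likewise high in FastBKK controls and near 0 in the FastBKK cold, with 3, 3 and 1 counts in cold and 58, 178 and 168 counts in control FastBKK bodies, against 11, 3 and 7 counts in cold and 5, 3 and 3 counts in control SlowBKK bodies. KATH had 2, 2 and 3 counts of GF10989 in the cold and 29, 35 and 58 counts in the control, so KATH controls held it as well. GF27440 (682 bases) did the opposite: it had 3, 1 and 2 counts in cold and 1, 0 and 0 counts in control FastBKK bodies, against 2, 0 and 2 counts in cold and 25, 44 and 23 counts in control SlowBKK bodies, and KATH controls had 49, 53 and 51 counts. Where a group lies at or under 3 counts per library the fitted fold depends on the prior count and is not given here.

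GF26649 (989 bases) was nearly absent from cold bodies of both SlowBKK and KATH. It had 50, 61 and 56 counts in cold and 366, 371 and 371 counts in control FastBKK bodies, against 2, 0 and 0 counts in cold and 193, 244 and 93 counts in control SlowBKK bodies. KATH had 2, 3 and 11 counts of GF26649 in the cold and 176, 181 and 189 in the control. GF27540 (894 bases) had 74, 83 and 33 counts in cold and 251, 236 and 220 counts in control FastBKK bodies, against 6, 10 and 1 counts in cold and 237, 179 and 252 counts in control SlowBKK bodies. KATH kept 119, 107 and 100 counts of GF27540 in the cold beside 154, 158 and 162 in the control.

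By scaffold, 24 of 431 tested genes were called on scaffold_12911 (5.57%), 7 higher and 17 lower, and 7 of 128 on scaffold_13334 (5.47%), all 7 higher. On the 4 scaffolds with most tested genes the share ran from 2.28% to 3.52%. Over all tested genes the share was 3.22%. Scaffold_12911 and scaffold_13334 were picked out after their shares were seen. Some scaffolds with fewer tested genes had higher shares, such as scaffold_13082 with 4 of 30 (13.3%). These shares were not tested.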
